A study of Mus musculus with 2 samples.

Results

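The axis of interleukin-23, interleukin-17 and interleukin-20 was taken here as 10 mouse genes, Il23a, Il17a, Il17c, Il17f, Il17ra, Il19, Il20, Il22, Il24 and Il20rb. Members were the probes other than controls whose gene name on the array was 1 of these symbols. All 10 genes were found, with 14 probes, among 30199 gene names and 39429 probes. Il19, Il20, Il24 and Il20rb had 2 probes each and the other 6 genes had 1, and each of these probes was printed as 1 spot.

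The study compared newborn skin of mice lacking PNPLA1, a lipid-metabolizing enzyme of the upper epidermis, with that of wild-type mice. Pnpla1-/- mice were homozygous for a targeted allele of the knockout-first design, made in C57BL/6N embryonic stem cells. The paper also describes removal of LacZ and Neo cassettes with flippase and does not spell out which form of the allele the null mice carried. Wild-type littermates served as controls (Pnpla1+/+, called wild-type). Both groups were C57BL/6N mice at P0, the day of birth, and the tissue is labelled skin although the series description also speaks of epidermis. Equal amounts of skin RNA from 6 animals of a genotype were pooled and hybridized with 1 dye (Cy3) to 1 Agilent mouse oligonucleotide array, so each genotype has 1 pool and 1 array. No spread between mice exists in these data, no test between genotypes was possible, and every difference describes these 2 pools.

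Each array had 43020 spots other than controls, of which 71.7% were well above background in wild-type and 73.3% in Pnpla1-/- skin, and none was saturated. Intensities are given as deposited, with ± the error that the scanner software assigns to the spot, which is not a spread between mice. The 75th percentile of intensity was 2108 for the wild-type array and 1734 for that of Pnpla1-/- skin. Each intensity was divided by that of its array before the log2 difference, Pnpla1-/- minus Pnpla1+/+, was taken, so a difference is not the ratio of the 2 printed intensities alone. Where only the Pnpla1-/- spot was well above background, the difference is a lower bound, set against the lowest signal well above background on the Pnpla1+/+ array (an intensity of 23.9), and where neither spot was, the probe is called at background in both pools and no fold is given. Of 314 probes with at least 8 spots, the median SD of the difference between repeated spots was 0.04.

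The targeted gene Pnpla1 had a signal of 579 ± 58.2 in wild-type and 114 ± 12.6 in Pnpla1-/- skin, so that the log2 difference was -2.07 ± 0.22. The Pnpla1-/- value was still well above background. Whether this probe lies in the altered stretch of the gene is not given in the sources used here. All 6 keratinocyte markers read here were well above background on both arrays, with log2 differences from -0.30 (Lor) to 1.35 (Krt14).

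Interleukin-23 is released by dendritic cells and macrophages and sustains the lymphocytes that make IL-17A, IL-17F and IL-22. IL-17C, by contrast, is made by epithelial cells themselves, and IL-17 cytokines share the receptor chain encoded by Il17ra. IL-19, IL-20 and IL-24 belong to the IL-10 family, are made largely by keratinocytes and myeloid cells, and signal through receptors that contain the chain encoded by Il20rb. In skin the axis is known for driving antimicrobial peptides, neutrophil chemokines and epidermal thickening, and it is a drug target in psoriasis.

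The probes decide what these values mean, because each value is the signal of 1 stretch of 60 bases. The probes of the 5 members that stood out or could be misread are printed here in transcript sense, 5′ to 3′ in lower case, with positions on mm9. For Il17c, Il22 and the reference-transcript probe of Il20 all 60 bases are shown, and for the others the first 30.
Il17c, A_55_P1980025, chr8:124947254-124947313, plus strand: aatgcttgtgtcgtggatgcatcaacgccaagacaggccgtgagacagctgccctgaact
Il22, A_55_P2199202, chr10:117642873-117642932, plus strand: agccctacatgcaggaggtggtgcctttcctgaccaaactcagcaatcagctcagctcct
Il20, A_51_P331044, chr1:132806293-132807358, minus strand: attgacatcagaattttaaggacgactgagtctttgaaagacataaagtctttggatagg
Il20, A_66_P132710, chr1:132803739-132803798, minus strand: ggctcccttatgtgaatgccttcatgtgtc
Il19, A_55_P2128144, chr1:132829235-132829294, minus strand: tgtagtgcatattgtactgactgacgttta
Il19, A_55_P2001489, chr1:132829446-132829505, minus strand: agaaaaacaattgggatttgaatggatctc
Il23a, A_52_P649817, chr10:127733766-127733825, minus strand: tgataagactaatctatcagcccagacatc
The reference-transcript probe of Il20 covers 1066 bases of genome and therefore crosses an intron, as does the Il17f probe, which covers 1346. The other 12 probes align without a gap. No mm9 genome or annotation was used here, so exon and UTR annotation of the probes was not analysed.

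In Pnpla1-/- skin, 4 of the 10 genes were at least 2-fold higher than in Pnpla1+/+ skin, namely Il19, Il17c, Il20 and Il23a. Among all 22400 genes with a difference or a bound, 6.7% were at least 2-fold higher. None of the 10 genes was at least 2-fold lower, against 3.04% of all genes. The median over the 10 genes was 0.88, or 0.83 over the 7 with a difference, beside 0.003 over all genes. Il20, Il22 and Il23a are among the cytokines that the study picked out on these same arrays, so they are no independent evidence of direction.

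Among the IL-20 subfamily ligands, Il19 had the largest difference of the 10 genes when bounds were taken at their minimum. The brighter Il19 probe had a signal of 24.1 ± 5.37 in wild-type and 1044 ± 104 in Pnpla1-/- skin, so that the log2 difference was 5.72 ± 0.35, or 52.6-fold. With normexp, a different background correction that also adds an offset of 50 to each signal, it was 4.04. The Pnpla1+/+ value was only 1.01 times the lowest signal that counted as well above background there. The other Il19 probe, 211 bases away, had 18.2 ± 6.78, not well above background, in wild-type and 406 ± 41.0 in Pnpla1-/- skin, at least 20.6-fold higher. Both Il19 probes thus placed the gene at the edge of detection in wild-type newborn skin and clearly above it in Pnpla1-/- skin. With bounds counted at their minimum, 31 genes were at least as high as Il19, itself included.

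Il20, which encodes the ligand that gives the subfamily its name, was 7.41-fold higher by 1 of its 2 probes. That probe had 59.6 ± 7.89 in wild-type and 363 ± 36.6 in Pnpla1-/- skin, so that the log2 difference was 2.89 ± 0.24, and 2.09 with normexp. The probe for the reference transcript of Il20, 2.55 kb away, had 4.86 and 4.33, values that the scanner software substitutes for spots at background, and was at background in both pools. The array lists the probe with signal under a cDNA and not under the reference transcript, so the call of Il20 rests on that cDNA alone. The 2 probes of Il20 were therefore at odds in Pnpla1-/- skin, where 1 was bright and the other at background.

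Il24, the third ligand of the subfamily, had 38.6 ± 6.65 in wild-type and 56.5 ± 7.56 in Pnpla1-/- skin at its brighter probe. The log2 difference was 0.83 ± 0.31, below 2-fold. Its other probe had 18.3 ± 7.50 and 23.6 ± 6.81, at background in both pools. Il24 was thus faint in both pools.

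Il22 encodes the lymphocyte cytokine that acts on keratinocytes through a related receptor. Its probe had 56.0 ± 7.53 in wild-type and 87.6 ± 9.87 in Pnpla1-/- skin, so that the log2 difference was 0.93 ± 0.25, or 1.90-fold. The array annotates this probe to Iltifb as well, a near-identical copy of Il22, so the 2 genes cannot be told apart by this probe. A separate Iltifb probe 83.8 kb away had 6.46 and 5.72, at background in both pools.

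Il23a, which encodes the subunit specific to IL-23, had 10.8 ± 5.48 in Pnpla1+/+ skin, not well above background, and 70.1 ± 8.56 in Pnpla1-/- skin. It was at least 3.56-fold higher, a bound of 1.83 on the log2 scale, which was 0.98 with normexp and 2.98 with a looser detection flag. The Pnpla1-/- signal was 3.23 times the lowest signal well above background on its array, so the gene was detected there but faintly.

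The epithelial cytokine gene Il17c separated the 2 pools most clearly within the IL-17 family. It had 16.5 ± 5.45, not well above background, in wild-type and 402 ± 40.5 in Pnpla1-/- skin, at least 20.4-fold higher (a bound of 4.35 on the log2 scale, and 2.74 with normexp). Il17a and Il17f encode the cytokines made by lymphocytes. Il17a had 20.6 ± 5.70, not well above background, and 28.5 ± 5.54, a bound of 0.53 on the log2 scale. No range of errors is given for this bound, because it does not use the wild-type spot. The Pnpla1-/- signal of Il17a was only 1.31 times the faintest signal called well above background there. Il17f had 36.6 ± 6.44 and 49.1 ± 6.81, a log2 difference of 0.71 ± 0.32. Il17f did not reach 2-fold, with a range of 2 errors either side of 0.06 to 1.36, and the bound of Il17a was below 2-fold. Il23a, Il17a and Il17c were well above background only in the Pnpla1-/- pool, that is 3 of the 10 genes, as were 3.71% of the 30193 genes with a usable probe.

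Both receptor genes were detected on both arrays and neither reached 2-fold. Il17ra had 418 ± 42.3 and 451 ± 45.4, a log2 difference of 0.39 ± 0.21, which was -0.04 when the arrays were centred on spike-in RNA. Il20rb had 3844 ± 384 in wild-type and 2647 ± 265 in Pnpla1-/- skin, so that the log2 difference was -0.26 ± 0.20. It was the only member that was lower in Pnpla1-/- skin under the main scaling. A range of 2 errors either side was -0.02 to 0.80 for Il17ra and -0.66 to 0.15 for Il20rb, so both included 0. The other Il20rb probe was at background in both pools.

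**Figure D1:**
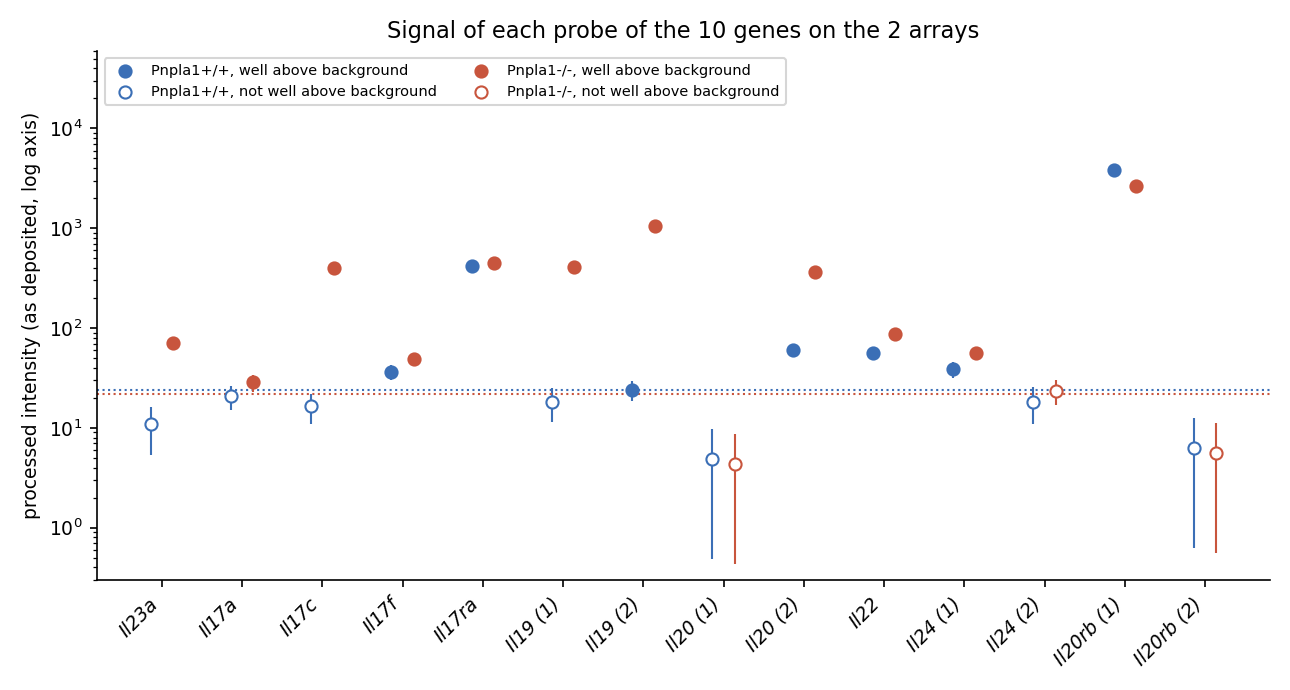
Processed intensity (log axis) of the 14 probes of the 10 genes in Pnpla1+/+ (blue) and Pnpla1-/- (red) skin; bars are the scanner software's error, open circles were not well above background, dotted lines mark the lowest signal well above background on each array (23.9 and 21.7), and (1) and (2) number the probes of a gene. The blue and red points of Il17c, Il23a, both Il19 probes and the second Il20 probe lie far apart, while those of Il17ra and Il20rb lie close together.

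**Figure D2:**
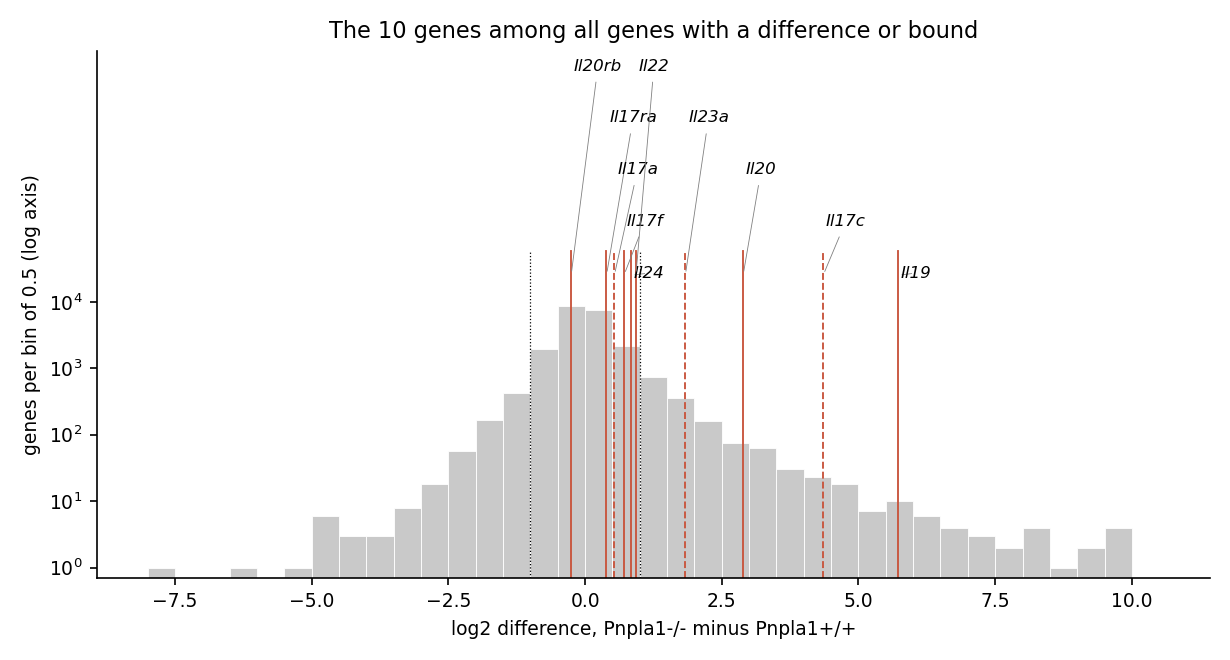
Number of genes (log axis) in bins of 0.5 of the log2 difference over the 22400 genes with a difference or a bound, with red lines at the 10 genes (dashed where the value is a bound) and dotted lines at 2-fold. Il19, Il17c, Il20 and Il23a lie beyond the upper 2-fold line, and the other 6 genes lie between the dotted lines.

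The partners of the members were read from 3 lists of related ligands and receptors. Beside each list count here and below stand the shares over all genes, 6.7% at least 2-fold higher and 3.04% lower. In the IL-12 and IL-23 list, 4 of the 7 genes with a value were at least 2-fold higher and none lower, with a median of 1.30 (0.79 with normexp). Il12b, whose product pairs with that of Il23a to form IL-23, had 6.36 ± 6.02 in wild-type and 178 ± 18.7 in Pnpla1-/- skin over 9 spots, at least 9.06-fold higher (a bound of 3.18 on the log2 scale, and 1.68 with normexp). Both subunit genes of IL-23 were thus detected in the Pnpla1-/- pool only. Il23r, the receptor chain specific to IL-23, had 4.88 ± 4.88 and 53.2 ± 6.88, at least 2.71-fold higher, a bound that fell below 2-fold (0.79 on the log2 scale) with normexp. Il12rb1, the receptor chain shared by IL-12 and IL-23, had 57.7 ± 8.97 and 171 ± 18.2, a log2 difference of 1.85 ± 0.27, and 1.14 with normexp. Ebi3, a subunit of IL-27, had a difference of 1.30 ± 0.20. Il27ra (0.97), Il12rb2 (0.29) and Il27 (0.26) did not reach 2-fold. Il12a, the subunit specific to IL-12, was at background in both pools, although the study named it among the up-regulated genes on these arrays.

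None of the other 6 measured IL-17 ligand and receptor genes reached 2-fold in either direction, and their median was -0.38. Il17rc, the partner chain of Il17ra for IL-17A and IL-17F, had a difference of 0.65 ± 0.20. Il17re, the partner chain for IL-17C, had 2265 ± 227 in wild-type and 1283 ± 128 in Pnpla1-/- skin, a difference of -0.54 ± 0.20. So the ligand gene Il17c and its receptor gene Il17re had differences of opposite sign. Il17d (-0.81), Il17rb (-0.72) and Il17rd (-0.22) were also below 0 and Il17b (0.53) was above it, while Il25 was at background in both pools. With spike-in centring, Il17d (-1.24) and Il17rb (-1.15) passed 2-fold.

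Of the other 6 IL-10 family genes with a value, 1 was at least 2-fold higher, and the median was 0.73. That gene was Il10ra, a receptor chain for IL-10 found on leukocytes, with 247 ± 25.4 and 663 ± 66.5 and a difference of 1.70 ± 0.21. Il22ra1, whose product serves IL-22 and also pairs with that of Il20rb, had 0.82 ± 0.21, and Il10rb, the other chain of the IL-22 receptor, had 0.54 ± 0.20. Il22ra2, which encodes a soluble protein that binds and blocks IL-22, had 0.84 ± 0.20. Il10 itself had 0.64 ± 0.41, with a range of 2 errors either side of -0.19 to 1.46, which included 0. Its wild-type signal was only 1.20 times the lowest signal well above background there. Ifnlr1 had 0.30 ± 0.20. The single spot of Il20ra was flagged as an outlier and gave 213 in wild-type and 227 in Pnpla1-/- skin, with no difference taken from it.

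**Figure D3:**
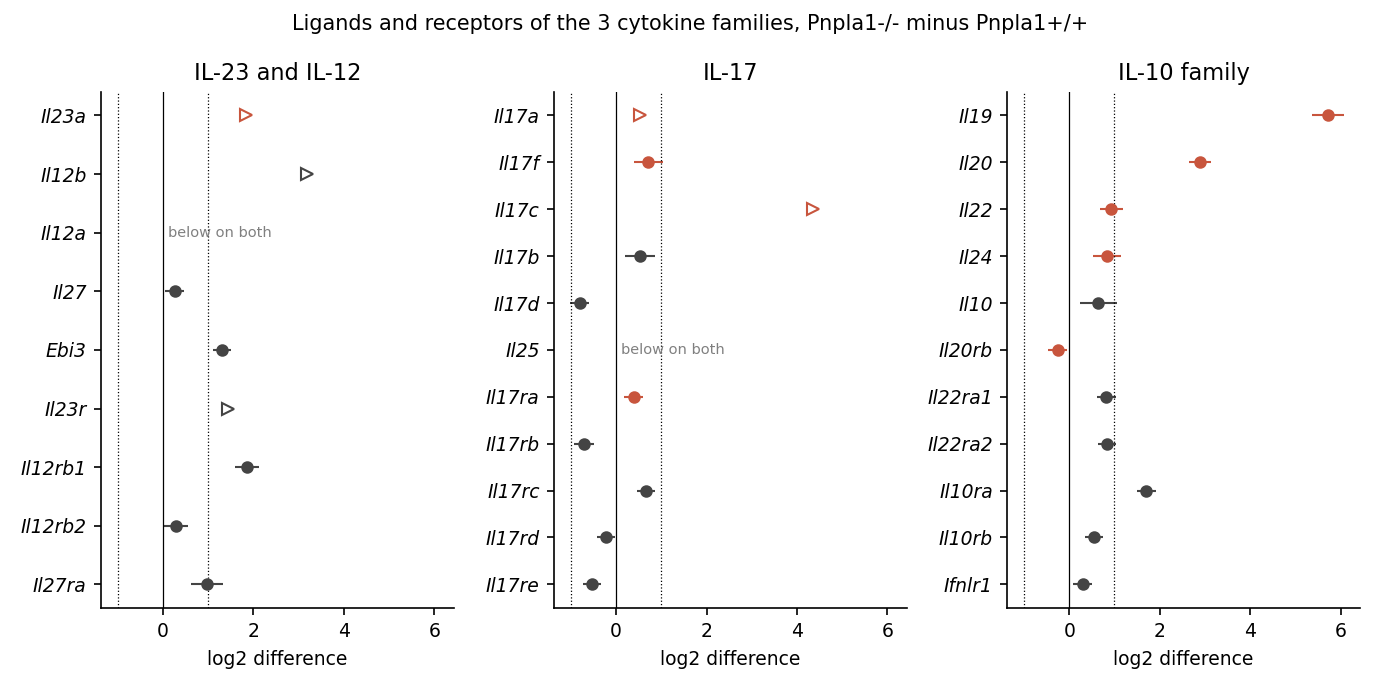
Log2 difference, Pnpla1-/- minus Pnpla1+/+, of ligand and receptor genes of the IL-12 and IL-23, IL-17 and IL-10 families (members red, other genes grey); bars are the error of the difference, open triangles are lower bounds, dotted lines mark 2-fold. The ligand genes Il19, Il17c, Il12b and Il20 lie furthest to the right, and Il17d, Il17rb and Il17re furthest to the left.

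Genes that carry the signal inside the cell were read from a list of 20, all with a value. Of these, 5 were at least 2-fold higher and none lower, with a median of 0.62. Zc3h12a, an RNase that IL-17 induces and that limits its signal, had 285 ± 29.1 in wild-type and 3519 ± 352 in Pnpla1-/- skin, a difference of 3.91 ± 0.21. Nfkbiz, a cofactor of NF-kB for IL-17 target genes, had 342 ± 34.7 and 1011 ± 101, a difference of 1.84 ± 0.21. Socs3 (1.37), Cebpd (1.34) and Stat3 (1.19), the factor downstream of the IL-22 and IL-20 receptors, were the others. Centred on spike-in RNA, 2 of the 20 (Zc3h12a and Nfkbiz) stayed at least 2-fold higher.

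Genes known to respond to the axis in keratinocytes were read from 2 lists. These lists were chosen with earlier results of these data known. The study had also picked out some of their genes, S100a8 among them, on these same arrays. Their counts and medians are therefore a description and no independent evidence of direction. All 15 IL-17 response genes with a value were at least 2-fold higher, with a median of 4.67 (3.42 with normexp), and the remaining gene, Ccl20, was at background in both pools. On the log2 scale, with bounds counted at their minimum, the 6 largest were the antimicrobial genes Defb3 (a bound of 8.69, and 6.89 with normexp), S100a8 (6.26), Defb4 (a bound of 5.46, and 3.42 with normexp) and Lcn2 (4.71), the acute-phase gene Saa3 (8.07, and 6.95 with normexp) and the neutrophil chemokine gene Cxcl5 (4.90, and 3.74 with normexp). This ranking is for the main setting, and with normexp another gene of the list, at 4.34, was above Defb4 and Cxcl5. Of 11 IL-22 and IL-20 response genes, 10 were at least 2-fold higher, with a median of 3.85 (2.11 with normexp). Krt6b (7.20), Krt6a (6.96) and Krt16 (4.13), keratins of thickened epidermis, were among them, while Krt17 had 0.65. Many of these genes also answer to other cytokines and to injury, and the part of the 10 members in their differences was not tested.

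Lists of cell markers were read beside the members, since in pooled tissue more cells of a type and more RNA per cell cannot be told apart. Of 13 T cell and innate lymphocyte markers with a value, 1 (Il2ra, 1.93, and 1.03 with normexp) was at least 2-fold higher. Another 1 (Cd5, -1.36) was at least 2-fold lower. Over all genes the shares were 6.7% and 3.04%. Values were above 0 for 8 of these markers and below 0 for 5. Their median was 0.21, which was -0.22 when the arrays were centred on spike-in RNA. Their summed level after scaling was 12.7 in wild-type and 9.63 in Pnpla1-/- skin, with Thy1, which other skin cells also make, the brightest, and without Thy1 the other 12 summed to 1.72 and 1.70. The genes of the CD3 complex, which defines T cells, were well above background in both pools, with differences of 0.13 (Cd3e), -0.40 (Cd3g), -0.46 (Cd3d) and -0.50 (Cd247). Cd3e was at -0.30 with spike-in centring. With normexp the values, in the same order, were 0.15, -0.09, -0.14 and -0.04. Of the other markers, Il7r (0.85), Ccr6 (a bound of 0.82), Zap70 (0.68), Trac (0.57), Cd2 (0.34) and Lck (0.21) were also above 0. Thy1 (-0.46) was below 0, as was Cd5. Trdc, which marks gamma-delta T cells, was not found by name on the array. Of 6 transcription factor genes of the lymphocytes that make IL-17, Batf (1.40) alone reached 2-fold.

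Several myeloid markers were at least 2-fold higher in Pnpla1-/- skin, as were 4 of the 10 members. Of 9 dendritic cell and macrophage markers with a value, 5 were at least 2-fold higher, Itgax (2.82, and 2.18 with normexp), Cd74 (2.46), H2-Ab1 (2.43), H2-Aa (2.42) and Adgre1 (1.24), with a median of 1.24. Their summed level was 19.8 in wild-type and 38.1 in Pnpla1-/- skin, Csf1r was the brightest, and Cd207, which marks Langerhans cells, was at background in both pools. The probes of Itgam were at odds, with differences of -0.03, 1.14 and 2.84. Of 10 neutrophil markers, 6 were at least 2-fold higher with a median of 3.34 (2.51 with normexp), among them Cxcr2 (a bound of 5.90, and 4.31 with normexp), Mmp8 (4.63, and 3.69 with normexp) and Mpo (4.35, and 2.98 with normexp), and S100a8, which keratinocytes also make and which is in the IL-17 response list too. Ly6g (0.42), Camp (0.18), Elane (0.05) and Csf3r (0.04) did not reach 2-fold, and the summed level of the list was 46.3 and 156, with Csf3r the brightest in wild-type and S100a8 in Pnpla1-/- skin. Without S100a8 the other 9 markers summed to 44.9 and 48.8, and without Csf3r as well the remaining 8 summed to 2.22 and 4.86. Of 7 mast cell markers, 1 (Fcer1a, 1.41) was at least 2-fold higher and the median was -0.47 (with spike-in centring none was higher, Cma1 was lower at -1.22, and the median was -0.90), with a summed level of 56.9 and 40.1 and Cpa3 the brightest. Of the 6 keratinocyte markers, Krt14 (1.35) alone reached 2-fold and the median was 0.17, which was -0.26 with spike-in centring, with a summed level of 508 and 573 and Krt10 the brightest. The part of these cell types in the members' differences was not tested.

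The pools also differed in sex-linked genes. Xist had 853 ± 85.5 in wild-type and 1528 ± 153 in Pnpla1-/- skin, and the Y-linked gene Eif2s3y had 5160 ± 516 and 932 ± 93.4. Differences of sex makeup and of genotype between these 2 pools cannot be told apart.

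**Figure D4:**
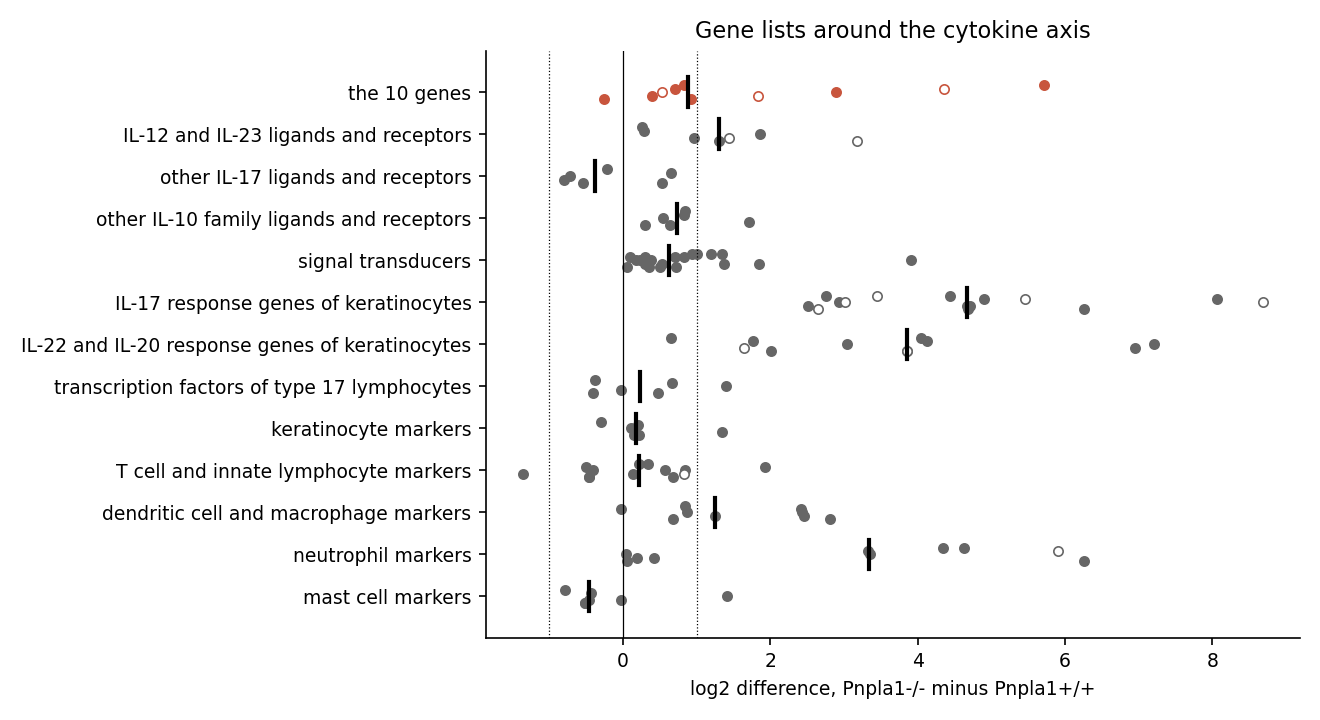
Log2 difference of each gene (points; open where a bound) in the 10 genes and 12 lists around them, with the median of each list as a black bar and dotted lines at 2-fold. The bars of both response gene lists (4.67 and 3.85) and of the neutrophil markers (3.34) lie right of that of the 10 genes (0.88), and those of T cell, transcription factor and keratinocyte lists lie near 0.

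Il19, Il20 and Il24 lie side by side on chromosome 1, with Il10 117 kb from the Il20 probe that had signal. Their differences were unequal along this cluster, with Il24 at 0.83, Il20 at 2.89, Il19 at 5.72 and Il10 at 0.64, and Mapkapk2, the gene beyond Il10, at 0.09. Faim3, 5.08 kb from an Il24 probe, had 1.20 ± 0.30, and Yod1 on the same side had -1.16 ± 0.20. Fcamr, also in the window, had a bound of 0.88, and C4bp and Pigr were at background in both pools. The other neighbours there had differences below 2-fold. Il17a and Il17f also lie together on chromosome 1, and none of the 5 measured genes within 250 kb of them reached 2-fold.

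Around all members, 71 neighbouring genes within 250 kb had a value, of which 5 (7.04%) were at least 2-fold higher and 1 (1.41%) lower, with a median of 0.005. The shares over all genes were 6.7% and 3.04%, so the share of higher neighbours was near the background. Besides Faim3 and Yod1, these were Stat2 (1.85), 3.93 kb from the Il23a probe, Mvd (1.16) and Snai3 (at least 2.90-fold) near Il17c, and Ifng (at least 2.24-fold), 240 kb from the Il22 probe. These neighbour counts are for the main scaling. Spike-in centring lowers each log2 difference by 0.43. Faim3, Mvd and Ifng are then below 2-fold, and Mdm1, Paqr8, 6330564D18Rik and LOC433347 are at least 2-fold lower. Read on either strand in the 250 bases before the start site (RefSeq, GRCm38.p6, where 7 of the 10 members were listed, not Il23a, Il24 or Il17ra), none of the 7 promoters held the AP-1 letters TGACTCA, the NF-kB letters GGACTTTCC or GGAATTTCC, or the STAT letters TTCCCGGAA or TTCCTGGAA. Of all 32851 promoters in the table, 4.46%, 0.283%, 0.286%, 0.268% and 0.651% held them.

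**Figure D5:**
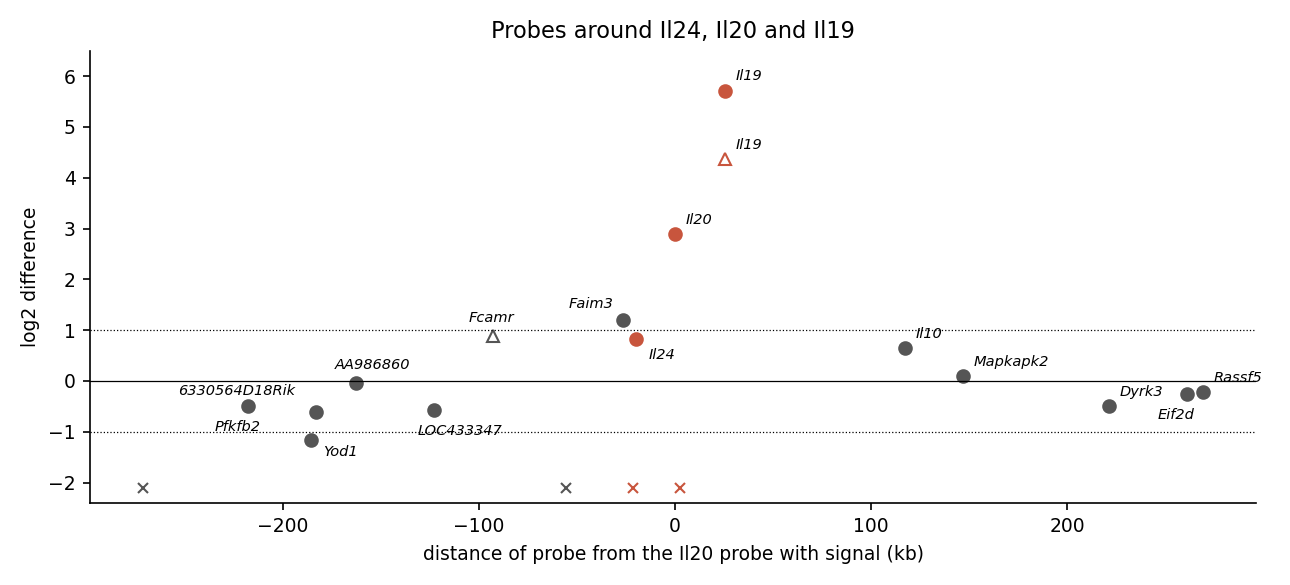
Log2 difference of probes around Il24, Il20 and Il19 (red) and of neighbouring genes (grey) against distance in kb from the Il20 probe with signal; open triangles are lower bounds, crosses at the foot were at background in both pools, and dotted lines mark 2-fold. Only Il20, Il19 and Faim3 lie above the upper dotted line.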

How the data were processed

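Total RNA of newborn skin was pooled by genotype, labelled with Cy3 and hybridized to Agilent mouse arrays of the 4x44K v2 design by the authors, who read them with Agilent Feature Extraction 11.5.1.1. The authors deposited for each spot a linear intensity, background-subtracted and detrended within the array, its error, and flags (well above background, saturated, outlier). The authors also deposited a ratio per spot, the intensity divided by 1 factor per array, 2109 and 1734, used here as an alternative only.

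Here, each array was scaled to its own 75th percentile over non-control spots before log2 was taken (Python 3.11.15, numpy 2.4.6, pandas 2.3.3). Outlier-flagged spots (138 and 82) were left out and repeated spots averaged. A probe was well above background where a share above 0.5 of its spots were, and a gene was given by its brightest probe. Of 30193 genes with a usable probe, 20705 had a difference, 1695 a bound, 16 no bound and 7777 were below on both arrays. The error of a difference combines the 2 spot errors. Of 153 negative control spots, 2 were well above background on each array. Both arrays lay on 1 slide, so no slide term could be fitted, and the number of arrays limits the precision.

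Named were all members and the genes of the 3 ligand and receptor lists, and from other lists and the neighbourhoods (250 kb) genes past 2-fold, at most 6 a list, with those below 2-fold named after their values were seen. Pnpla1 was added likewise. Members and lists were chosen with earlier results of these data known. Coordinates are on mm9. The alternatives used R 4.3.3 and limma 3.58.1 for normexp (offset 50) and quantile normalization. The computation was tested on simulated data. The value of 1 gene is not reported here.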

Additional observations from a re-analysis of the deposited data

How the results depend on the processing

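With 1 array per genotype, nothing here separates genotype from pool, and leaving out a replicate was not possible. No paired analysis was possible because each genotype has 1 array. Of the 10 members, 4 were at least 2-fold higher, and this count was 3 with normexp background correction (Il23a fell to a bound of 0.98), 2 when only genes well above background on both arrays were used (Il19 and Il20), 7 at 1.5-fold and 4 at 3-fold, and 4 in the other settings. Of the 4, 3 stayed past 2-fold in every one of 11 settings that gave them a value, and 9 of 10 members kept their sign, the exception being Il17ra (-0.04 with spike-in centring). The median member difference of 0.88 was 0.45 with centring on 8 E1A spike-in probes, 0.81 with median scaling, 0.60 with no scaling, 0.57 with normexp, 0.71 with quantile normalization and 0.83 over genes well above background on both arrays. The count of all genes at least 2-fold higher was 1501, and 828 with spike-in centring, 3046 with the looser detection flag (positive and significant), 999 with no scaling, 958 with normexp, 3097 at 1.5-fold and 684 at 3-fold. Spike-in centring moved the median of all genes to -0.43 and no scaling to -0.28, and the percent higher among all genes past 2-fold from 68.8% to 27.5% and 41.2%. The medians of the T cell and transcription factor lists changed sign with spike-in centring and no scaling, and that of keratinocyte markers with quantile normalization too. With spike-in centring, the log2 differences of Ebi3 (0.87), Batf (0.97), Krt14 (0.92), Adgre1 (0.81) and Fcer1a (0.98) fell below 2-fold, as did Il23r (0.79) and Reg3b (0.76) with normexp. Spike-in centring lowers every log2 difference by the same 0.43. Normexp adds an offset of 50 to each signal, which shrinks the differences of faint spots. The causes of the differences between the pools were not tested. Il17a, Il17f, Il22, Il23a and Il24 were near background, where 1 spot per array limits what can be read.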
